A study of Mus musculus with 9 samples.

Results

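The 33 genes described here encode the enzymes and regulators by which cells make cholesterol and fatty acids. They were taken by gene symbol, older synonyms included, from a list chosen with earlier results of these arrays in view. A named probe was found for 29 of the 33 (of 17742 genes named on the array), with 32 probes in all of 26423. The platform annotation writes mouse symbols in capitals (SQLE, NSDHL, SCD2, FADS2), given here in the usual mouse form, and Msmo1 was reached through its older name SC4MOL. No named probe was found for Acat2, Hmgcs1, Cyp51 and Acly, so these 4 were not analysed here.

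The 9 one-colour arrays, 3 per group, carried RNA of BALB/c females after 7 days of daily treatment. The Vanillin group had imiquimod (IMQ) on the shaved back together with vanillin by mouth at 100 mg/kg. The IMQ group had imiquimod alone, an agonist of toll-like receptor 7 that induces psoriasis-like inflammation, and the Mock group had Vaseline cream. Mice given vanillin without imiquimod were not among the samples, and nothing in the labels says whether the 3 arrays of a group are 3 mice. The p-values therefore stand on a spread between arrays that may be technical. The tissue is labelled as skin, whereas the extraction protocol mentions muscle. Genes of both tissues were bright: the epidermal keratin Krt1 stood at percentile 99.2 of mean intensity and the muscle creatine kinase Ckm at percentile 99.1. The authors' values had been equalised between arrays (array medians 629 to 631), so all changes are relative to the other probes. The median SD of the 29 genes within a group was 0.113 log2 units on Vanillin, 0.0333 on IMQ and 0.133 on Mock arrays.

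Cholesterol is made from acetyl-CoA through mevalonate, the isoprenoid units, squalene and lanosterol, and the same acetyl-CoA feeds the synthesis of palmitate, which elongases and desaturases turn into longer and unsaturated fatty acids. The transcription factors SREBP1 and SREBP2, made as membrane proteins and escorted by SCAP when sterols are scarce, switch on both pathways, SREBP2 mainly the sterol genes and the SREBP1c form mainly the fatty acid genes. In the epidermis cholesterol and fatty acids are components of the barrier lipids, and sebaceous glands and fat are further sites of synthesis in skin. On promoters of these genes SREBP is known to act together with the factors NF-Y and Sp1.

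Promoter windows from RefSeq (GRCm38.p6) were present for 22 of the 29 measured genes. The windows ran from 250 bases before to 50 after an annotated start. They were not present for Fdps, Fdft1, Sqle, Stard4, Scd1, Scd2 and Fads1. The NF-Y box CCAAT was found on either strand in 18 of the 22 genes (81.8%), and in 41.7% of all array genes with a window. The Sp1 box GGGCGG was found in 17 (77.3%), and in 55.8% of all array genes with a window. The core of the sterol regulatory element, TCACNCCAC, was found in 0 of the 22 and in 1.44% of array genes; looser forms of that element were not searched. A gene with several annotated starts was counted once if any of its windows held the motif, and overlapping matches on both strands were each kept. The 250 bases before the start are shown for 3 sterol genes that were higher in IMQ than in Mock skin (Hsd17b7, Ebp and Idi1), for a sterol gene that was lower (Nsdhl) and for 2 fatty acid genes that were lower (Fads2 and Elovl6), so that the windows can be set beside the changes described next. Capitals mark NF-Y boxes, which here all read ATTGG, the reverse strand form.
Hsd17b7: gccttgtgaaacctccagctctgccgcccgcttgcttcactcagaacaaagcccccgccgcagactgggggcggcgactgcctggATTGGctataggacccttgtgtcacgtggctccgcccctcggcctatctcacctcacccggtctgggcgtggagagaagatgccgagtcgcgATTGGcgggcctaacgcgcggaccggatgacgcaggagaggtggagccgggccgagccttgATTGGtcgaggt
Ebp: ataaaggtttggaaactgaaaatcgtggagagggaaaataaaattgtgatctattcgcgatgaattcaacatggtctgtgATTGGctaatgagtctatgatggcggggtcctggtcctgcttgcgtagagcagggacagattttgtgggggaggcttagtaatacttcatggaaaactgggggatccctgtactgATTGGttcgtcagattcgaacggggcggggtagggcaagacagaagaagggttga
Idi1: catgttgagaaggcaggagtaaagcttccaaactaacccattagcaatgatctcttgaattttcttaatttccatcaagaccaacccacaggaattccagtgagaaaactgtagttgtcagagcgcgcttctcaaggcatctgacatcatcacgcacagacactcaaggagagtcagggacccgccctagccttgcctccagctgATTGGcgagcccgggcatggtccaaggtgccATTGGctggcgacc
Nsdhl: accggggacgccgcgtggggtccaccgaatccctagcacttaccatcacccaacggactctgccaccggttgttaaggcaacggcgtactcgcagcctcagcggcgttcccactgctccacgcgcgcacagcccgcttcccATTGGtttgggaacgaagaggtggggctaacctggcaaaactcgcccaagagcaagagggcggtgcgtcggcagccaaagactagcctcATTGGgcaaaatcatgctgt
Fads2: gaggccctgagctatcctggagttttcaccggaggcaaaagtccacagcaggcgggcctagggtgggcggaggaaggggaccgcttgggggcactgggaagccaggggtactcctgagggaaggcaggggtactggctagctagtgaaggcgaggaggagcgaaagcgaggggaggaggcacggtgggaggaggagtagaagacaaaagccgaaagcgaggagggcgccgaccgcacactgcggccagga
Elovl6: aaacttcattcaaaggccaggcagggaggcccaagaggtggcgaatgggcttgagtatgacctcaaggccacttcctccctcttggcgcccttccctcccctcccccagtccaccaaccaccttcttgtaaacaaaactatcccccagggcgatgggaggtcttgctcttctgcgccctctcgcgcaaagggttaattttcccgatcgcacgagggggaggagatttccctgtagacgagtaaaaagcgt
The 250 bases shown for Hsd17b7 (chr1:169969206-169969455, minus strand) held 3 boxes, the nearest beginning 12 bases before the start. Those of Ebp (chrX:8193513-8193762, minus strand), Idi1 (chr13:8885356-8885605, plus strand) and Nsdhl (chrX:72918271-72918520, plus strand) held 2 each. Those of Fads2 (chr19:10101504-10101753, minus strand) and Elovl6 (chr3:129532136-129532385, plus strand) held 0. In the whole windows, with the 50 bases after the start, Nsdhl had 4 boxes, Hsd17b7 3, and Ebp and Idi1 2 each. Of the genes higher in IMQ than in Mock skin 11 of the 11 with a window had an NF-Y box, and of those lower 2 of 4 had one, namely Nsdhl and Srebf1. Among the genes called neither, 5 of the 7 with a window had one. These are counts of letters in a window, and no binding was measured. The counts also depend on the number of windows. The higher genes Dhcr7, Pmvk and Me1 had several windows, and only some of these held a box. The lower genes without a box, Fads2 and Elovl6, had no second window. Srebf1, lower and with a box, and the other higher genes are not among the sequences shown.

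Imiquimod treatment was set against Mock to ask what differed in the tissue. Mock skin had Vaseline cream, so imiquimod and any difference in cream base cannot be told apart. In IMQ skin 14 of the 29 genes (48.3%) were called higher (limma, adjusted p under 0.05 over all probes), 6 (20.7%) lower and 9 neither. Of all probes 24.0% were called higher, 29.6% lower and 53.6% in either direction. The probes used for the 29 genes lay from percentile 38.2 to 99.9 of mean intensity, so all probes are not matched to them in brightness. With the lowest 25% of probes left out, 12162 probes were called, beside 14157 over all 26423. For Vanillin against IMQ these numbers were 9655 and 10898, and for Vanillin against Mock 6943 and 7045. Shares over all probes are thus smaller than shares over brighter ones. The sterol branch, from mevalonate to cholesterol, gave 11 higher, 2 lower and 2 neither of 15, with a median change of 0.57 log2 units. The genes of elongation and desaturation gave 0 higher, 3 lower and 3 neither of 6, with a median of -0.35. Over all 29 genes the median change was 0.13, beside -0.04 over all probes. Without Mock replicate 2 the median of the 29 was 0.21. All 20 calls kept their side of the threshold in each of the 9 fits that left out 1 array.

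Vanillin was set against IMQ to ask for the effect of giving vanillin on top of imiquimod. With vanillin 10 of the 29 genes (34.5%) were called higher, 7 (24.1%) lower and 12 neither, beside 24.3% of all probes higher, 17.0% lower and 41.2% in either direction. The sterol branch gave 4 higher and 4 lower of 15, with a median change of -0.01, and elongation and desaturation 4 higher and 0 lower of 6, with a median of 0.47. These counts changed with the arrays in the fit, as did the count over all probes. When any IMQ array or Vanillin replicate 1 or 2 was left out, 5 or 6 genes were called higher and 2 or 3 lower. Among all probes 6576 to 8499 were then called, beside 10898 with all 9 arrays. Without Mock replicate 2, which is in neither group compared, the genes lower numbered 2 and 10290 of all probes were called. Calls kept in all 9 fits that left out 1 array were those of 7 genes: Nsdhl, Sc5d, Scd2, Fads1 and Srebf1, higher, and Sqle and Me1, lower. In none of the 9 fits did the change of a called gene switch sign.

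In Vanillin against Mock skin, where both imiquimod and vanillin differ, 18 of the 29 genes (62.1%) were called higher, 3 (10.3%) lower and 8 neither. Of all probes 11.9% were called higher, 14.7% lower and 26.7% in either direction. In the sterol branch 14 of 15 were higher and 1, Fdps, was lower, with a median change of 0.67. The median over all 29 genes was 0.57, beside 0.01 over all probes. Calls of 16 of the 21 genes were kept in all 9 fits that left out 1 array. With only the Vanillin and Mock arrays in the fit, 13 genes were higher and 3 lower. Among all probes 4727 were then called, beside 7045 with all 9 arrays. The IMQ arrays, which had the smallest spread, thus add to the calls of a comparison they are not in. The 3 comparisons share arrays with each other, so their values stand side by side and are not independent. In whole tissue, fewer cells of a type and less RNA per cell cannot be told apart.

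**Figure D1:**
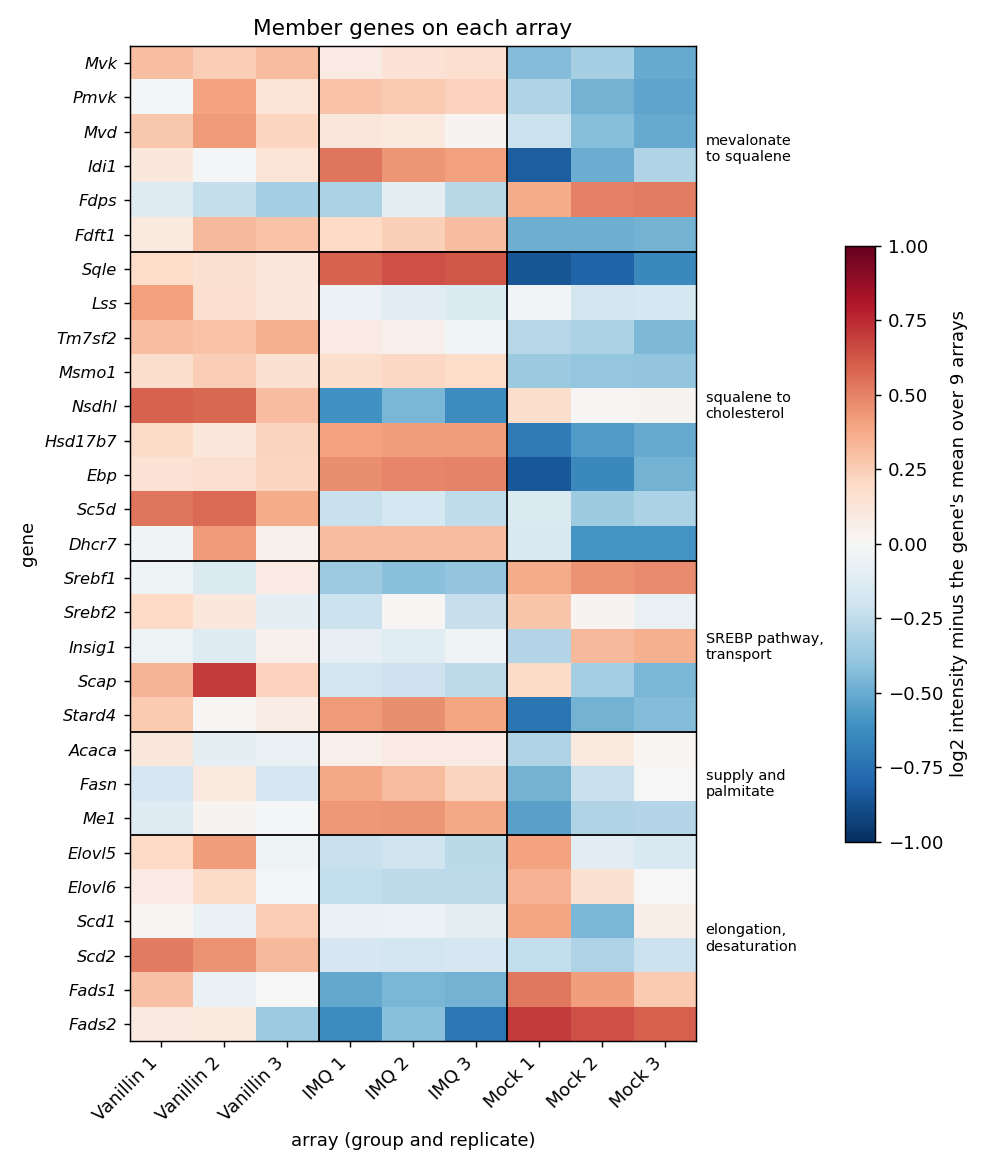
Log2 intensity of the 29 measured genes (rows, grouped by role) on the 9 arrays (columns), each as its difference from the gene's mean over all arrays. Sterol genes such as Sqle, Ebp and Hsd17b7 were highest on the IMQ arrays and lowest on the Mock arrays, while Fads1, Fads2 and Srebf1 were lowest on the IMQ arrays.

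The first steps measured here turn mevalonate into the isoprenoid building blocks. Idi1, the isomerase of isopentenyl diphosphate, had the largest change of this stretch in IMQ skin. It read 14.65, 14.53 and 14.68 (log2 intensity) on Vanillin arrays, 15.08, 14.99 and 14.95 on IMQ arrays, and 13.72, 14.05 and 14.24 on Mock arrays. The 3 groups did not overlap, with IMQ highest and Mock lowest. Idi1 was higher in IMQ than in Mock skin by a log2 change of 1.004 ± 0.13 (SE, adjusted p = 0.000297). It was lower with vanillin than in IMQ skin by a log2 change of -0.39 ± 0.13 (adjusted p = 0.0412). In 6 of 9 fits without 1 array that call was lost (adjusted p up to 0.128), namely without any IMQ array, Vanillin replicate 1 or 2, or Mock replicate 2. The log2 change itself ran from -0.42 to -0.35 in the 9 fits.

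The kinases and the decarboxylase before it moved alike in IMQ skin. Mvk, mevalonate kinase, was higher by 0.55 ± 0.08 (log2, SE) in IMQ than in Mock skin, and Mvd, the decarboxylase, by 0.46 ± 0.10. Against IMQ skin neither passed the test with vanillin (Mvk 0.15 ± 0.08, adjusted p = 0.153, and Mvd 0.23 ± 0.10, adjusted p = 0.108). Against Mock skin the Vanillin group stood at 0.71 for Mvk and 0.68 for Mvd. Pmvk, phosphomevalonate kinase, had 3 probes. The brightest read 12.36, 12.79 and 12.52 on Vanillin arrays, 12.67, 12.65 and 12.62 on IMQ arrays, and 12.08, 11.91 and 11.86 on Mock arrays. It was higher by 0.69 ± 0.12 in IMQ than in Mock skin and changed by -0.09 with vanillin (adjusted p = 0.586). A second gave 0.73 for IMQ against Mock but was called lower with vanillin (-0.32, adjusted p = 0.0231), and the third lay at intensity percentile 10.6 and was not called in any comparison.

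Squalene itself is made by Fdft1 from the farnesyl diphosphate that Fdps supplies, and these 2 neighbours in the pathway went opposite ways. Fdft1, squalene synthase, read 14.36, 14.59 and 14.55 on Vanillin arrays, 14.46, 14.50 and 14.57 on IMQ arrays, and 13.77, 13.78 and 13.79 on Mock arrays. Both imiquimod groups lay above every Mock array and overlapped each other. The change was 0.73 ± 0.09 (SE, adjusted p = 0.000184) in IMQ against Mock skin and 0.72 in Vanillin against Mock skin, the largest of this stretch in that comparison. A dim second probe of Fdft1 (percentile 31.0) read -0.15 for IMQ against Mock (adjusted p = 0.272) and was not called in any comparison, so its probes disagreed. Fdps, farnesyl diphosphate synthase, read 11.28, 11.17 and 11.08 on Vanillin arrays, 11.09, 11.32 and 11.13 on IMQ arrays, and 11.78, 11.91 and 11.92 on Mock arrays. It was the only one of the 29 genes called lower in both imiquimod groups against Mock with no call between them: -0.69 ± 0.10 (SE, adjusted p = 0.000498) for IMQ, -0.69 for Vanillin, and -0.01 between the groups (adjusted p = 0.967).

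After squalene, 9 genes were measured. Sqle, squalene epoxidase, a rate-limiting enzyme of the pathway, had the largest change of the 29 genes in IMQ skin. Its log2 intensities were 13.79, 13.76 and 13.72 on Vanillin arrays, 14.20, 14.25 and 14.22 on IMQ arrays, and 12.75, 12.80 and 12.96 on Mock arrays. The groups were far apart compared with their spread, with Vanillin between IMQ and Mock. Sqle was 2.62-fold higher in IMQ than in Mock skin (1.39 ± 0.08 SE, adjusted p = 6.87e-06), changed by -0.47 ± 0.08 with vanillin (adjusted p = 0.00364), and was still higher in Vanillin than in Mock skin by 0.92 ± 0.08 (adjusted p = 8.65e-05).

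Ebp, the sterol isomerase, and Hsd17b7, a ketosteroid reductase that acts after the demethylation of lanosterol, followed the same order of groups. Ebp read 16.20, 16.22 and 16.27 on Vanillin arrays, 16.52, 16.54 and 16.55 on IMQ arrays, and 15.21, 15.41 and 15.58 on Mock arrays. It was higher in IMQ than in Mock skin by 1.14 ± 0.10 (SE) and changed by -0.31 ± 0.10 with vanillin against IMQ (adjusted p = 0.0405). Hsd17b7 was 2.01-fold higher in IMQ than in Mock skin and changed by -0.24 ± 0.08 with vanillin (adjusted p = 0.0476). The vanillin calls of both genes were lost in 6 of 9 fits without 1 array, the same arrays as for Idi1 (adjusted p up to 0.113 for Ebp and 0.131 for Hsd17b7).

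Msmo1, which removes the methyl groups at carbon C-4, and Dhcr7, the last reductase before cholesterol, were higher in both imiquimod groups. Msmo1 stood at 0.57 ± 0.07 (SE) for IMQ against Mock and at 0.00 between Vanillin and IMQ. Dhcr7 stood at 0.76 ± 0.16 in IMQ and 0.59 in Vanillin skin, each against Mock, the second a call lost without Vanillin replicate 2 or Mock replicate 2 or 3 (adjusted p up to 0.075). Tm7sf2, a sterol reductase, was called higher in every comparison, the only gene of the 29 with that pattern: 0.39 ± 0.08 in IMQ against Mock, 0.28 ± 0.08 in Vanillin against IMQ and 0.67 ± 0.08 in Vanillin against Mock skin. Its call for Vanillin against IMQ was lost in 4 of 9 fits, without any IMQ array or Vanillin replicate 1 (adjusted p up to 0.0993).

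Nsdhl, the dehydrogenase that works with Msmo1 and Hsd17b7 in removing those methyl groups, moved the other way. It read 8.93, 8.91 and 8.64 on Vanillin arrays, 7.73, 7.88 and 7.71 on IMQ arrays, and 8.51, 8.35 and 8.36 on Mock arrays. The IMQ arrays were lowest, the Vanillin arrays highest, and no groups overlapped. Nsdhl was lower in IMQ than in Mock skin (-0.63 ± 0.11 SE, adjusted p = 0.00114) and 2.07-fold higher in Vanillin than in IMQ skin (1.05 ± 0.11 SE, adjusted p = 0.000679), the only one of the 29 genes to reach 1 log2 unit in that comparison. Against Mock the Vanillin group stood at 0.42 ± 0.11 (adjusted p = 0.0185), a call lost without Vanillin replicate 1 or 2 or Mock replicate 2 or 3 (adjusted p up to 0.0647). Its probe was dim, at percentile 38.2 of mean intensity.

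Sc5d, the sterol desaturase, and Lss, which cyclises squalene epoxide to lanosterol, were not called for IMQ against Mock (0.06 ± 0.09 and 0.02 ± 0.10). Sc5d read 10.49, 10.53 and 10.33 on Vanillin arrays, 9.74, 9.79 and 9.71 on IMQ arrays, and 9.81, 9.61 and 9.65 on Mock arrays. Every Vanillin array lay above the other 6, and the change against IMQ was 0.70 ± 0.09 (SE, adjusted p = 0.00152). Lss was higher by 0.33 ± 0.10 (adjusted p = 0.0298) in Vanillin than in IMQ skin and by 0.35 in Vanillin than in Mock skin. The first call was lost without any IMQ array or Vanillin replicate 1 or 2 (adjusted p up to 0.0981), and the second also without Mock replicate 2 or 3 (up to 0.0971).

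**Figure D2:**
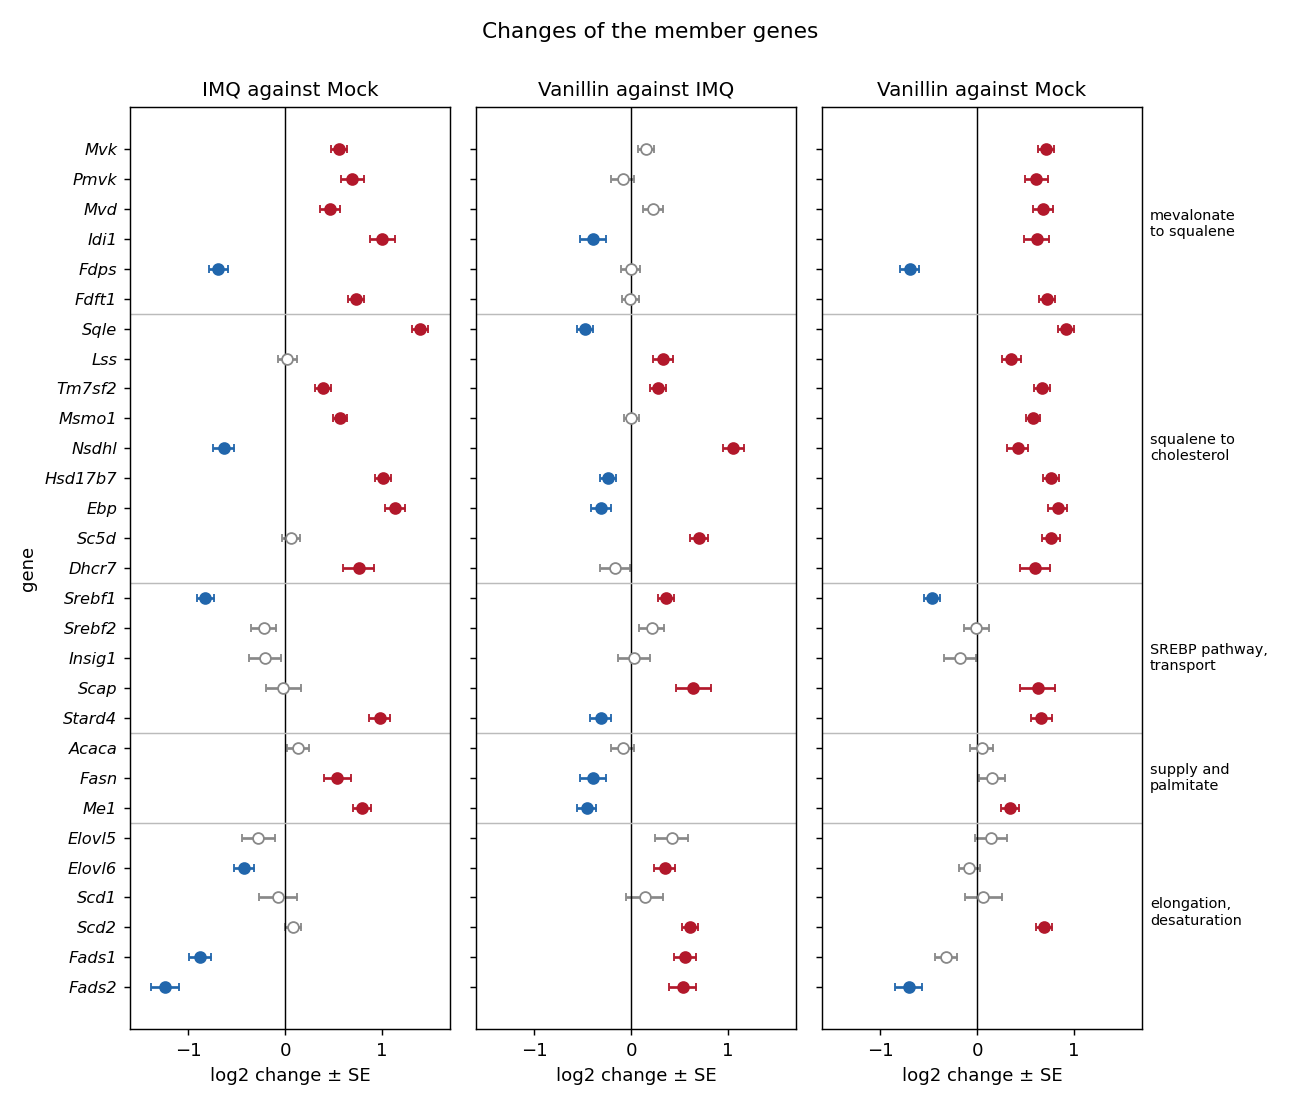
Log2 change with its standard error for the 29 measured genes in the 3 comparisons, by role; filled red points were called higher, filled blue points lower, and open points were not called. In Vanillin against Mock skin 14 of the 15 genes from mevalonate to cholesterol were called higher, Fdps alone being lower, beside 11.9% of all probes higher and 14.7% lower. Fads2 was called lower against Mock in both imiquimod groups.

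Of the 5 genes of the SREBP pathway and sterol transport, 1 was higher, 1 lower and 3 neither in IMQ against Mock skin. The share called, 40.0%, was below that of all probes, 53.6% (24.0% higher and 29.6% lower). Srebf1, which encodes SREBP1, read 11.18, 11.09 and 11.31 on Vanillin arrays, 10.87, 10.81 and 10.83 on IMQ arrays, and 11.60, 11.67 and 11.70 on Mock arrays. IMQ was lowest and Mock highest, without overlap. In IMQ against Mock skin it changed by -0.82 ± 0.09 (SE, adjusted p = 9.34e-05). With vanillin it was 0.36 ± 0.09 above IMQ (adjusted p = 0.0116) and stood at -0.46 ± 0.09 (adjusted p = 0.00418) against Mock. Which transcripts of SREBP1a and SREBP1c the probe covers is not given in the sources used here.

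Srebf2, which encodes SREBP2, was not called in any comparison. It read 12.28, 12.19 and 11.99 on Vanillin arrays, 11.87, 12.10 and 11.86 on IMQ arrays, and 12.36, 12.11 and 12.01 on Mock arrays, with all 3 groups overlapping. The log2 ratio of Srebf1 to Srebf2 within an array ran from -1.29 to -1.001 on IMQ arrays and from -0.76 to -0.31 on Mock arrays, a difference of -0.60 (exact permutation test, two-sided, p = 0.1, the smallest that 3 against 3 arrays can give; adjusted p = 0.3 over 12 such comparisons). The ranges did not overlap. Vanillin arrays, from -1.101 to -0.675, overlapped both IMQ arrays (difference 0.15, exact p = 0.6) and Mock arrays (-0.46, exact p = 0.2).

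Insig1, which holds the SREBP and SCAP complex in the endoplasmic reticulum and is itself an SREBP target, was not called, at -0.21 ± 0.16 (SE) for IMQ against Mock. Mock replicate 1 read 14.52 beside 15.14 and 15.17 on the other Mock arrays. Without that array the change was -0.42 (adjusted p = 0.00409) in IMQ and -0.39 (adjusted p = 0.0099) in Vanillin skin, each against Mock. Scap, the escort protein, read 15.54, 15.90 and 15.43 on Vanillin arrays, 15.01, 15.00 and 14.94 on IMQ arrays, and 15.40, 14.86 and 14.75 on Mock arrays. It was higher in Vanillin than in IMQ skin by 0.64 ± 0.18 (adjusted p = 0.0221), lost without any IMQ array or Vanillin replicate 2 (adjusted p up to 0.072). The call against Mock, 0.62 ± 0.18, was lost in 7 of 9 fits (adjusted p up to 0.111), kept only without Mock replicate 1 or Vanillin replicate 3.

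Stard4, a carrier of cholesterol within cells, was the gene of the 5 called higher in IMQ skin, and its calls in the 3 comparisons matched those of Sqle, Ebp, Hsd17b7 and Idi1. It read 13.24, 12.99 and 13.05 on Vanillin arrays, 13.41, 13.44 and 13.37 on IMQ arrays, and 12.24, 12.51 and 12.54 on Mock arrays. Its change was 0.98 ± 0.11 (SE, adjusted p = 0.000129) in IMQ and 0.66 ± 0.11 (adjusted p = 0.00222) in Vanillin skin, each against Mock. Vanillin against IMQ gave -0.31 ± 0.11 (adjusted p = 0.0464), lost in 6 of 9 fits, without any IMQ array, Vanillin replicate 2 or 3, or Mock replicate 2 (adjusted p up to 0.134).

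**Figure D3:**
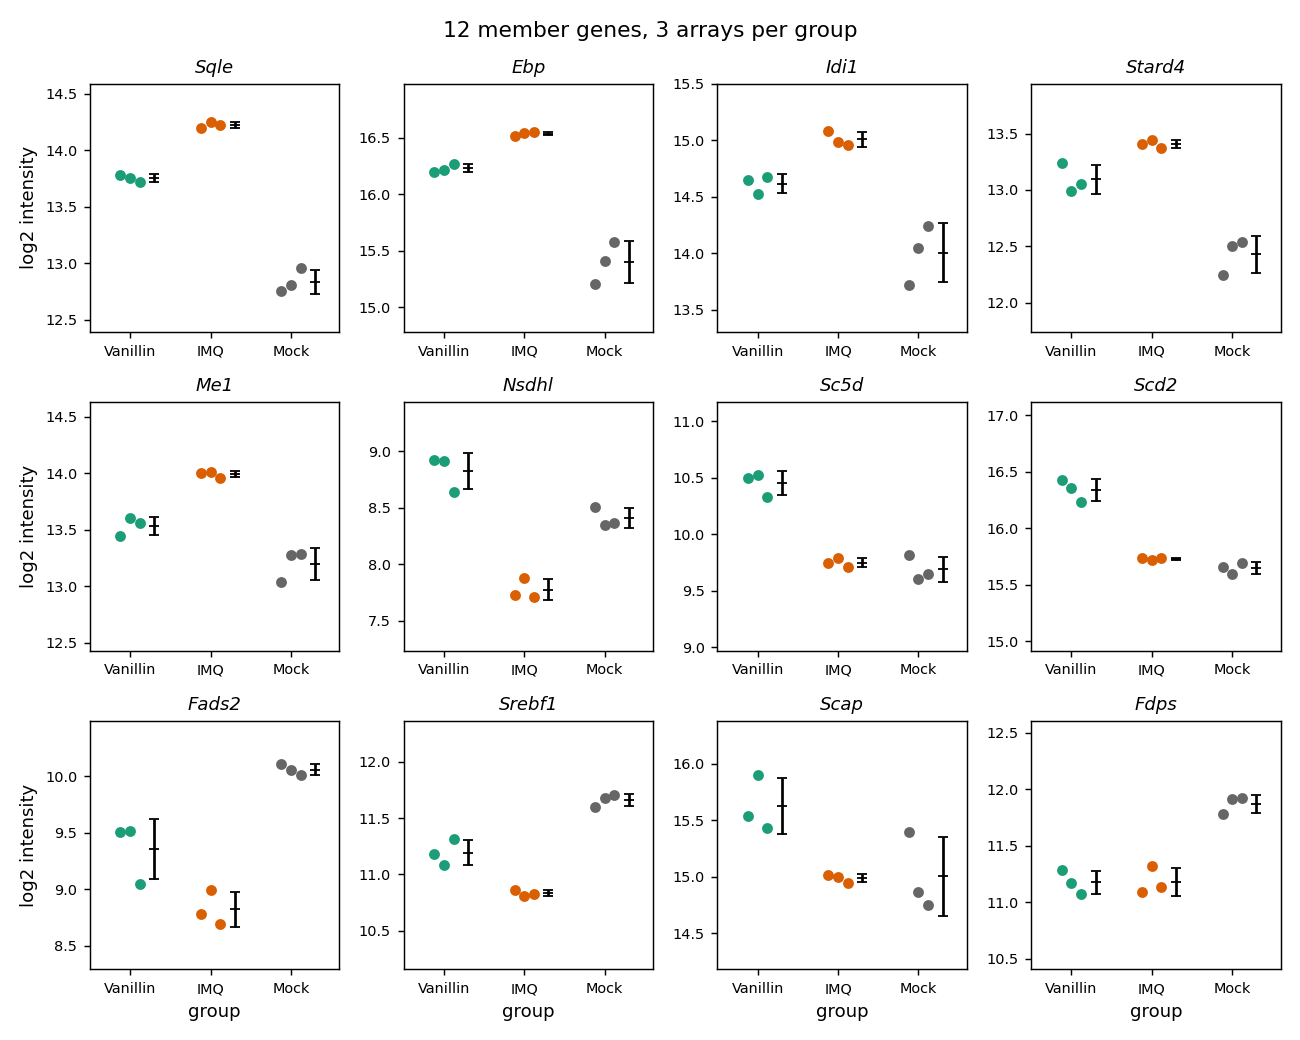
Log2 intensity on each array for 12 of the genes, with the mean and SD of each group of 3 arrays beside the points; every panel spans the same range of log2 units. Sqle, Ebp, Idi1, Stard4 and Me1 were highest on IMQ arrays, Nsdhl, Sc5d, Scd2 and Scap were highest in the Vanillin group, and Fads2, Srebf1 and Fdps were highest on Mock arrays.

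The supply of NADPH and the making of palmitate were represented by 3 genes. Me1, malic enzyme, which supplies NADPH, read 13.45, 13.60 and 13.56 on Vanillin arrays, 14.01, 14.01 and 13.96 on IMQ arrays, and 13.04, 13.27 and 13.28 on Mock arrays. The groups did not overlap. Me1 was 1.74-fold higher in IMQ than in Mock skin (0.80 ± 0.09 SE, adjusted p = 0.000184) and lower with vanillin than in IMQ skin (-0.46 ± 0.09, adjusted p = 0.00652). Against Mock the Vanillin group was higher by 0.34 ± 0.09, which was no longer called in 5 of 9 fits, without any IMQ array or Vanillin replicate 2 or 3 (adjusted p up to 0.0856).

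Fasn, fatty acid synthase, read 9.64, 9.90 and 9.64 on Vanillin arrays, 10.20, 10.13 and 10.04 on IMQ arrays, and 9.33, 9.59 and 9.81 on Mock arrays. It was higher in IMQ than in Mock skin (0.54 ± 0.13 SE, adjusted p = 0.00872), while Vanillin and Mock arrays overlapped (0.15 ± 0.13, adjusted p = 0.455). The change for Vanillin against IMQ, -0.39 ± 0.13 (adjusted p = 0.0466), was lost in 6 of 9 fits, without any IMQ array, Vanillin replicate 1 or 3, or Mock replicate 2 (adjusted p up to 0.14). Acaca, acetyl-CoA carboxylase, the committed step of fatty acid synthesis, was not called in any comparison, with changes from -0.09 to 0.13.

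Among the desaturases, the front-end enzymes Fads1 and Fads2, which make polyunsaturated fatty acids, were lowest in IMQ skin. Fads2 read 9.50, 9.51 and 9.05 on Vanillin arrays, 8.78, 8.99 and 8.69 on IMQ arrays, and 10.11, 10.06 and 10.01 on Mock arrays. No groups overlapped. Its change of -1.24 ± 0.14 (SE, adjusted p = 0.000144) for IMQ against Mock was the largest fall of the 29 genes, and against Mock the Vanillin group stood at -0.71 ± 0.14 (adjusted p = 0.00607). The vanillin change against IMQ, 0.53 ± 0.14 (adjusted p = 0.0169), was lost without IMQ replicate 1 or 3 or Vanillin replicate 1 or 2 (adjusted p up to 0.0688).

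Fads1 read 14.16, 13.80 and 13.87 on Vanillin arrays, 13.35, 13.41 and 13.39 on IMQ arrays, and 14.39, 14.28 and 14.12 on Mock arrays. It was lower in IMQ than in Mock skin (-0.88 ± 0.12 SE, adjusted p = 0.000303) and higher with vanillin than in IMQ skin (0.56 ± 0.12, adjusted p = 0.00654). Vanillin and Mock arrays overlapped, and that difference of -0.32 ± 0.12 was not called (adjusted p = 0.0722). Without Vanillin replicate 1 it was -0.43 and passed the test (adjusted p = 0.0225). The log2 ratio of Fads2 to Fads1 within an array was lower on IMQ than on Mock arrays by a difference of -0.36 (exact permutation test, two-sided, p = 0.1; adjusted p = 0.3) and changed by -0.02 between Vanillin and IMQ, where the groups overlapped. Between Vanillin and Mock the difference was -0.38, without overlap (exact p = 0.1, adjusted p = 0.3). An exact p of 0.1 is the smallest this test can give with so few arrays per group, so it could not call these differences.

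The stearoyl-CoA desaturases, which make monounsaturated fatty acids, were represented by Scd1 and Scd2. Scd2 read 16.42, 16.36 and 16.23 on Vanillin arrays, 15.74, 15.72 and 15.74 on IMQ arrays, and 15.66, 15.60 and 15.69 on Mock arrays. The Vanillin arrays stood above all others. Scd2 was 1.52-fold higher in Vanillin than in IMQ skin (0.61 ± 0.08 SE, adjusted p = 0.00159) and 1.61-fold higher in Vanillin than in Mock skin (0.69 ± 0.08, adjusted p = 0.000373), but was not called for IMQ against Mock (0.08 ± 0.08). Scd1, the main isoform of sebaceous glands and fat, read 17.46, 17.37 and 17.70 on Vanillin arrays, 17.37, 17.39 and 17.36 on IMQ arrays, and 17.84, 16.99 and 17.51 on Mock arrays. Its groups overlapped in every comparison and it was not called. Its probe lay at percentile 99.9 of mean intensity. The log2 ratio of Scd2 to Scd1 within an array was higher on Vanillin than on IMQ arrays by 0.47, without overlap. The exact permutation test, two-sided, gave p = 0.1 (adjusted p = 0.3). That is the smallest p the test can give with so few arrays per group, so it could not call even full separation. The ratio overlapped between Vanillin and Mock (0.62, exact p = 0.2) and between IMQ and Mock (0.16, exact p = 0.7).

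The elongases Elovl5, which acts on polyunsaturated fatty acids, and Elovl6, which extends palmitate, were both lower on every IMQ array than on any Mock array or on any Vanillin array. Elovl6 read 15.15, 15.26 and 15.06 on Vanillin arrays, 14.82, 14.81 and 14.80 on IMQ arrays, and 15.42, 15.22 and 15.07 on Mock arrays. It was lower in IMQ than in Mock skin (-0.43 ± 0.11 SE, adjusted p = 0.00845) and higher in Vanillin than in IMQ skin (0.35 ± 0.11, adjusted p = 0.0294), the second call lost without any IMQ array or Vanillin replicate 1 or 2 (adjusted p up to 0.0913). Elovl5 read 14.64, 14.86 and 14.39 on Vanillin arrays, 14.22, 14.24 and 14.18 on IMQ arrays, and 14.85, 14.33 and 14.29 on Mock arrays. With this wider spread it was not called for IMQ against Mock (-0.27 ± 0.17, adjusted p = 0.198) or between Vanillin and IMQ (0.42 ± 0.17, adjusted p = 0.0757). The second difference passed the test without Mock replicate 1 (adjusted p = 0.0251) or Vanillin replicate 3 (adjusted p = 0.0307). The log2 ratio of Elovl6 to Elovl5 within an array overlapped between groups in all 3 comparisons, with differences from -0.22 to -0.07 (exact p from 0.2 to 0.5).

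Other genes of lipid synthesis were mixed. Of 19 measured, 8 were higher, 6 lower and 5 neither in IMQ against Mock skin, 7 higher and 5 lower in Vanillin against IMQ, and 7 higher and 3 lower in Vanillin against Mock. The elongase Elovl7 was the largest for IMQ against Mock, at 2.32 ± 0.20 (SE, adjusted p = 3.21e-05). Insig2, the relative of Insig1, was the largest for Vanillin against IMQ, at -1.16 ± 0.22 (adjusted p = 0.00507), and the elongase Elovl3 for Vanillin against Mock, at 1.45 ± 0.11 (adjusted p = 3.9e-05). Of 15 genes of sterol uptake, storage and efflux, 4 were higher and 6 lower in IMQ against Mock skin, led by the lipoprotein receptor Scarb1 at -1.24 ± 0.16. With vanillin against IMQ 4 were higher and 3 lower, led by Nr1h2, a sterol-sensing nuclear receptor, at -0.85 ± 0.15, and against Mock 2 were higher and 4 lower, led by Ch25h, cholesterol 25-hydroxylase, at 0.59 ± 0.15. Of 10 genes of fatty acid oxidation, 8 were not called in each comparison. Ehhadh, of the peroxisome, had the largest change of these in IMQ against Mock skin (-1.45 ± 0.13) and with vanillin against IMQ (0.99 ± 0.13). Nr1h2, Ch25h and Ehhadh were dim, at percentiles 29.4, 31.3 and 34.4 of mean intensity. Beside these lists, 24.0% of all probes were called higher and 29.6% lower in IMQ against Mock skin. The shares were 24.3% and 17.0% in Vanillin against IMQ, and 11.9% and 14.7% in Vanillin against Mock.

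Markers of tissue parts moved beside these genes. Among all probes 24.0% were called higher and 29.6% lower in IMQ against Mock skin, and 24.3% and 17.0% in Vanillin against IMQ. Of 11 adipocyte markers 0 were higher and 9 lower in IMQ against Mock skin, and 8 were higher and 1 lower in Vanillin against IMQ. Their summed intensity ran from 252592 to 263907 on Vanillin arrays, 227925 to 232339 on IMQ arrays and 342113 to 359882 on Mock arrays. Fads2 and Srebf1 likewise had IMQ lowest and Mock highest without overlap, whereas for Fads1 and Elovl6 the Vanillin and Mock arrays overlapped. Of 7 skeletal muscle markers 0 were higher and 5 lower in IMQ against Mock, and 5 were higher and 0 lower in Vanillin against IMQ. Their sums ran from 293540 to 312716 on Vanillin, 240152 to 246064 on IMQ and 300851 to 337469 on Mock arrays. Of 7 markers of differentiated keratinocytes 4 were higher and 1 lower in IMQ against Mock, and the sums ran from 1056871 to 1135295 on Vanillin, 1039909 to 1086394 on IMQ and 647277 to 717810 on Mock arrays, so that, as for most sterol genes, both imiquimod groups lay above Mock.

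Of 12 sebaceous gland markers, 2 of which (Elovl3 and Soat1) also stand in the lipid lists, 5 were higher and 3 lower in IMQ against Mock, and 3 were higher and 2 lower in Vanillin against IMQ. Their sums ran from 164408 to 171705 on Vanillin, 176256 to 180283 on IMQ and 145831 to 172969 on Mock arrays. Basal keratinocyte markers gave 2 higher and 3 lower of 7 in IMQ against Mock, with sums from 585911 to 692771 on Vanillin, 585358 to 669319 on IMQ and 595579 to 640212 on Mock arrays. Macrophage markers gave 4 higher and 2 lower of 6, with sums from 25822 to 26806 on Vanillin, 28897 to 29940 on IMQ and 22589 to 24588 on Mock arrays. No marker of these lists was at the intensity floor in any group. The shares of all probes beside these counts are again 24.0% higher and 29.6% lower in IMQ against Mock, and 24.3% and 17.0% in Vanillin against IMQ. The part of any of these tissue parts in the changes of the 29 genes was not tested.

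**Figure D4:**
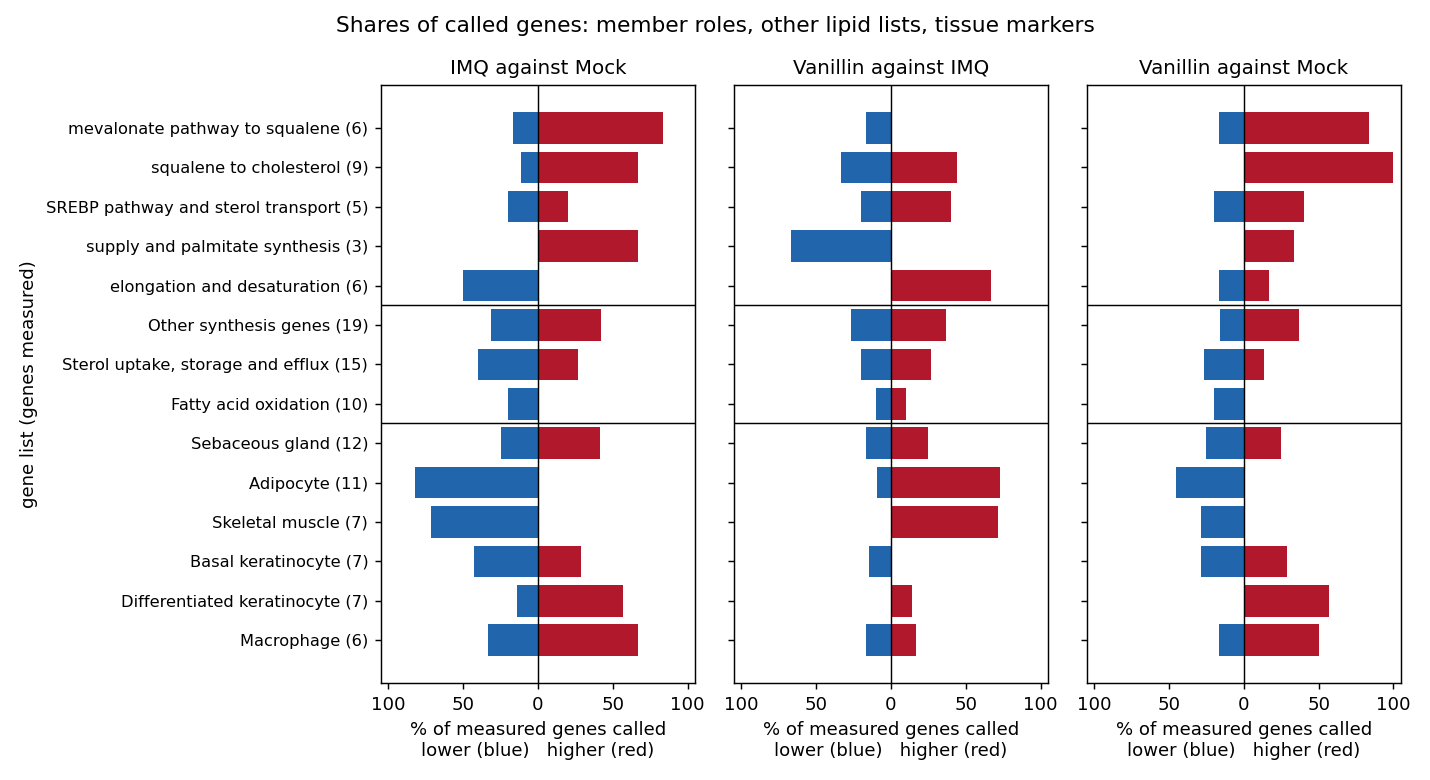
Share of the measured genes of each list called higher (red, to the right) or lower (blue, to the left) in the 3 comparisons, for the 5 roles of the genes described here, the other lipid lists and the tissue markers; the number of genes measured is in parentheses. The elongation and desaturation genes and the skeletal muscle markers had 0 genes called higher in IMQ against Mock skin and 0 called lower with vanillin against IMQ. Adipocyte markers and fatty acid oxidation genes also had 0 called higher in IMQ against Mock skin, with 1 each called lower with vanillin against IMQ. Of all probes 24.0% were called higher in the first comparison and 17.0% lower in the second.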

How the data were processed

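The authors' deposited table holds linear probe intensities of 9 one-colour Cy5 arrays. The tool limma is named with no version, per the submitters' processing notes. Neither scanner nor background correction nor filters are stated there. The sorted values of the columns were nearly the same, so arrays had been equalised before deposit. Here values under 1 were set to 1 and log2 was taken. One model with a mean for each group was fitted to every probe on all 9 arrays with limma 3.58.1 under R 4.3.3, and p-values were adjusted (Benjamini-Hochberg) across the 26423 probes of a comparison; a call is an adjusted p under 0.05. By the platform annotation 20377 probes carry 1 gene symbol and 6046 carry none, and 2126 older symbols were updated through a table of GRCm38.p6 used for names. Where a gene had several probes, the brightest on average stood for it. The procedure was tested on simulated data. The number of arrays limits the precision.

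The genes and lists were chosen with earlier results of these data known. Array values are given for the largest change of each role in each comparison, every change of at least 1 log2 unit between Vanillin and IMQ, pairs of related genes and genes whose probes disagreed. Ebp, Fasn, Fdps and Sc5d, and the changes given for the remaining genes, were added after their values were seen. Alternatives changed the normalization, filter, offset, prior, weights, arrays in the fit, threshold and probe choice, added the replicate number as a block and left out each array.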

Additional observations from a re-analysis of the deposited data

How the results depend on the processing

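Quantile normalization, median centring, a log2(intensity + 50) scale and leaving out the lowest 25% of probes changed none of the 87 calls (29 genes in 3 comparisons). With array weights 11 more calls were made and 0 lost. For IMQ against Mock these were Sc5d, Scd2, Srebf2, Insig1 and Scd1 (0.27, against -0.07 without weights), and the median of the 29 genes was 0.27. For Vanillin against IMQ they were Mvk, Mvd, Srebf2 and Elovl5, and for Vanillin against Mock Insig1 and Elovl5. At an adjusted p under 0.01 the genes called for Vanillin against IMQ were 4 higher and 2 lower, with 5457 of all probes called, and 4231 probes were called for Vanillin against Mock. With the mean of all probes of a gene the median for Vanillin against Mock was 0.42. Leaving out 1 array gave a median of 0.13 to 0.21 for IMQ against Mock, 5 to 11 genes higher and 2 to 7 lower for Vanillin against IMQ, with a median of 0.047 to 0.165 and 6576 to 12805 probes called, and a median of 0.45 to 0.58 for Vanillin against Mock. With a replicate block 2 genes were lower for Vanillin against IMQ, where Idi1, Hsd17b7, Ebp, Stard4 and Fasn were not called. Deviations of arrays with the same number correlated from -0.265 to 0.222, and those with different numbers from -0.18 to 0.261. No sign of pairing by number was seen, though 3 arrays per group are too few to exclude it. With only both groups in the fit, Lss, Nsdhl, Dhcr7, Scap and Me1 were not called for Vanillin against Mock, and Elovl5 was called for Vanillin against IMQ. With a trended, robust prior Fads1 was called for Vanillin against Mock. Apart from the threshold, where fewer pass by construction, the cause of these differences was not tested.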
